A study of Mus musculus with 8 samples.

Results

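The genes described here are those of the epidermal differentiation complex, a block of mouse chromosome 3 that encodes proteins of the cornified envelope, together with envelope genes that lie elsewhere. They were picked out by gene symbol, and the set was chosen with earlier results of these data known. It holds 50 genes of the Lce, Sprr and S100a families, and 17 of 18 further genes named for their place in the envelope. This makes 67 of the 23393 genes in the expression table. The remaining name, Flg, is not analysed here. The data are poly(A) RNA-seq values of gut epithelium from E16.5 mouse embryos (the age is in embryonic days), with 2 libraries each of forestomach, hindstomach (the glandular stomach), proximal small intestine (called intestine here) and colon. All 4 tissues were untreated, and the isolation protocol in the labels names ShhCre;R26YFP/+ embryos, which carry a Cre driven from the Shh locus and a YFP reporter, as the source of epithelium at this age. The forestomach was cut away along the border with the glandular stomach and its epithelium was peeled off after Dispase, whereas the other 3 epithelia were shaken off in EDTA, so tissue and isolation method cannot be told apart in any forestomach comparison. The labels do not say whether the 2 libraries of a tissue came from separate embryos or pools, so p-values reflect the scatter of the deposited libraries alone, and part of that scatter may be technical.

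The cornified envelope is the protein shell that replaces the plasma membrane of a dying keratinocyte. Transglutaminases crosslink loricrin, involucrin, small proline-rich (Sprr) proteins and late cornified envelope (Lce) proteins into it, and fused S100 proteins such as repetin and hornerin join the keratin network beneath. In rodents the forestomach is lined by a keratinising stratified squamous epithelium, while the glandular stomach and the bowel carry a simple columnar epithelium that builds no such envelope.

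Levels are given in FPKM, mapped fragments scaled by transcript length and by the size of the library, in the order replicate 1, replicate 2. The 2 forestomach libraries were unlike each other. Over the 12894 genes that reached 1 FPKM in 2 or more libraries, their values correlated at r = 0.713 on the log2(FPKM + 1) scale, against 0.959 to 0.984 for the 3 other pairs, and their median absolute log2 difference was 0.67, against 0.14 to 0.27. Squamous keratins (11 genes) summed to 1155 FPKM in forestomach replicate 1 and 34983 FPKM in replicate 2, against 4.31 to 252 FPKM in the other 6 libraries. Of 14 gastric glandular markers, 9 were higher in forestomach replicate 1 than in both hindstomach libraries and 5 were lower than in both. They summed to 168778 FPKM in forestomach replicate 1, above the 27264 and 38499 FPKM of the hindstomach libraries, and to 2709.8 FPKM in forestomach replicate 2. Pgc, Gkn2 and Gkn1 made up 95.7% of the sum in replicate 1, whereas Cym, the largest in the hindstomach (23524 and 29459 FPKM), stood at 8.49 FPKM there. Mesenchyme and muscle markers (13 genes) summed to 4569 FPKM in forestomach replicate 1 and 97.5 FPKM in replicate 2. The library labelled forestomach replicate 1 thus held squamous markers together with glandular and muscle markers, and its 10 most abundant genes took 52.5% of its summed FPKM, against 6.27% to 17.4% elsewhere. Each forestomach result is therefore given with and without it where that matters. In bulk RNA, fewer cells of a type and less RNA per cell cannot be told apart.

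Most envelope genes were higher in the forestomach than elsewhere. Of the 67, 49 were higher in both forestomach libraries than in each of the 6 other libraries. That pattern was shown by 4.72% of all genes in the table and 5.17% of those tested below. The 67 genes together made up 0.832% of the summed FPKM in forestomach replicate 1 and 11.3% in replicate 2. They made up 0.351% and 0.387% in the hindstomach, 0.141% and 0.143% in the intestine, and 0.247% and 0.326% in the colon. In forestomach replicate 2 they held 6 of the 10 highest ranks: Sprr3 was the 3rd most abundant transcript, Krtdap the 4th, Asprv1 the 5th, Cnfn the 6th, Sprr1a the 7th and Lor the 10th.

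**Figure D1:**
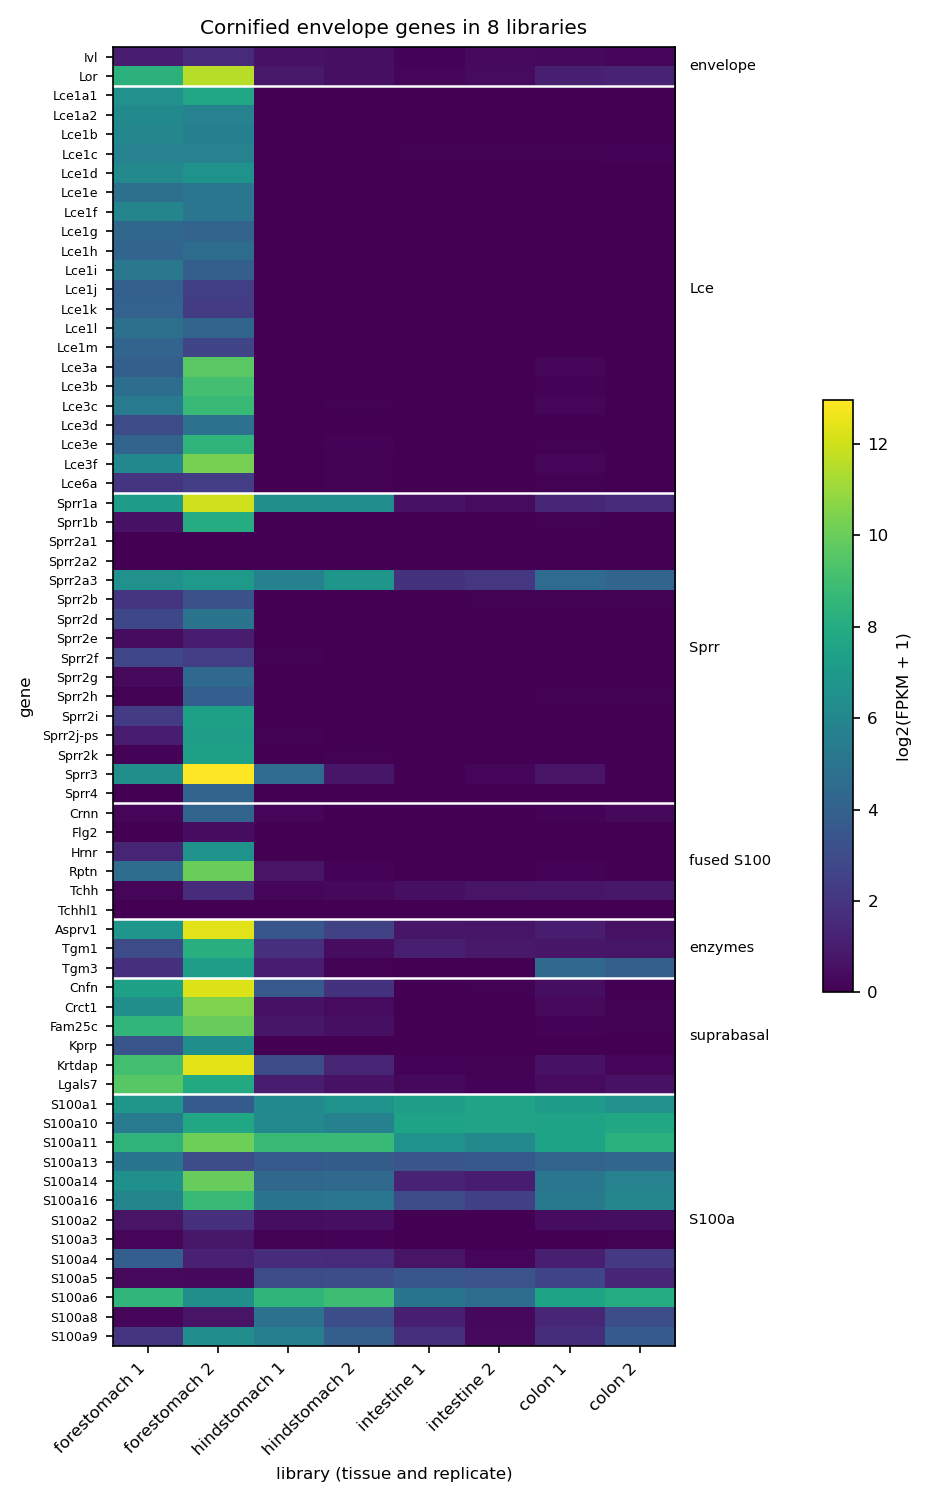
Level of each of the 67 genes (rows, grouped by role) in each of the 8 libraries (columns), as log2(FPKM + 1) by colour. Nearly all rows outside the S100a block are bright only in the 2 forestomach columns, and most of those are brighter in replicate 2. Most Lce1 rows are about as bright in both.

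Tissues were compared with limma on log2(FPKM + 1), a scale on which changes of low genes are understated, over all 12894 genes that passed the filter, and genes count as called where the adjusted p (Benjamini-Hochberg) is under 0.05 and the tissues differ by 2-fold or more. The filter kept 52 of the 67 genes, and 32 of those 52 were under 1 FPKM in all 6 other libraries: they passed through the forestomach alone and could hardly fail to be higher there, so their calls are no evidence about the group. Against the hindstomach, 30 of the 52 were called higher in the forestomach (1.33% of all tested genes were) and 1 was called lower (4.26%). Against the intestine, 41 were higher (5.78% of all tested genes) and 1 lower (11.3%). Against the colon, 37 were higher (2.41%) and 1 lower (9.2%). The median log2 difference of the 52 was 4.43, 4.70 and 4.52 in these comparisons, beside medians of -0.39, -0.11 and -0.41 over all tested genes. The same 32 genes enter the members' median, so it too is no evidence about the group. Scaling by median of ratios moved the median over all genes in the hindstomach comparison to -0.05 and turned its calls from 172 higher and 549 lower into 231 and 223, while the members' calls became 28 higher and 1 lower.

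The 3 comparisons share the forestomach libraries, and 30 genes were called higher in all of them (1.12% of all tested genes). Of those 30, 27 belong to the 32 that were low everywhere else, and the remaining 3, Cnfn, Krtdap and Lor, come from the 20 others. Without forestomach replicate 1, 42 of the 52 were higher than in each other tissue (5.67% of all tested genes), the same 30 among them, and without replicate 2 there were 38. By comparison, without replicate 1, 43 were higher and 3 lower than in the hindstomach (7.54% and 13.7% of all tested genes), 46 and 2 than in the intestine (12.2% and 16%), and 44 and 4 than in the colon (7.47% and 18.4%). In these fits the remaining forestomach library was assumed to vary like the other tissues. Leaving out a hindstomach library lowered the count to 12, and leaving out an intestine or a colon library lowered it to 17. The 12 genes called in the fit of all libraries and in each of 16 alternatives were 10 of the Lce1 genes, Fam25c and Lgals7. Fits of only the tissues compared, which make no joint set, are not counted among the 16. Each other member's call against the hindstomach given below was lost when either hindstomach library was left out.

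Loricrin, the main structural protein of the envelope (Lor, chr3:92080271-92083142, minus strand), stood at 320.1 and 3029 FPKM in the forestomach, 0.848 and 0.425 in the hindstomach, 0.13 and 0.282 in the intestine, and 1.2 and 1.35 in the colon. Its forestomach libraries differed 9.46-fold and were still both more than 2 orders of magnitude above every other library. The log2 difference from the hindstomach was 9.25 (SE 0.95, limma adjusted p = 0.00692), and 10.87 without forestomach replicate 1 (limma adjusted p = 3.81e-05). Involucrin, an early scaffold of the envelope (Ivl, chr3:92570902-92573735, minus strand), was by contrast barely present: 1.04 and 2 FPKM in the forestomach, 0.526 and 0.423 in the hindstomach, 0.0946 and 0.235 in the intestine, and 0.2 and 0.131 in the colon. The forestomach libraries lay above the rest, but Ivl was called only against the intestine (log2 difference 1.09, SE 0.25, limma adjusted p = 0.03) and the colon (limma adjusted p = 0.0405), and not against the hindstomach (limma adjusted p = 0.12). Ivl was under 1 FPKM in all 6 other libraries and passed the filter through the forestomach alone. Its calls therefore follow from where it was detected.

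The Lce genes encode small proteins that enter the envelope late. All 21 were higher in both forestomach libraries than anywhere else, and the highest value of any Lce gene in the 6 other libraries was 0.154 FPKM. All 21 passed the filter through the forestomach alone, so their calls (20 of 21 higher than in the hindstomach, and 21 of 21 than in the intestine and the colon) follow from where they were detected. What differed was the behaviour of the 2 subfamilies between the forestomach libraries. The 14 Lce1 genes ranged from 14.6 to 94.3 FPKM in replicate 1 (median 31.4) and from 3.95 to 195 FPKM in replicate 2 (median 27.7), and summed to 581 and 595 FPKM. The ratio of replicate 2 to replicate 1 was 0.249 to 2.06 among them (median 0.757), with 9 higher in replicate 1 and 5 higher in replicate 2. The 6 Lce3 genes were all higher in replicate 2, by 4.3-fold to 56.9-fold (median 20.2), and summed to 168 and 3413 FPKM. The ratio ranges of the subfamilies did not overlap, and the median ratio over all tested genes was 1.19. As the 2 libraries differ in their glandular and muscle content as well, the source of this split was not tested.

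Lce1a1 was the highest Lce1 gene, at 94.3 and 195 FPKM in the forestomach, 0 and 0.0275 in the hindstomach and 0 in all 4 bowel libraries, and its log2 difference from the hindstomach was 7.07 (SE 0.35, limma adjusted p = 0.000555). Lce1d stood at 68 and 96.7 FPKM and was listed at 0 in all 6 other libraries. Lce1c stood at 52.8 and 53 FPKM, with no more than 0.0804 elsewhere. These 3 were level or somewhat higher in replicate 2. Lce1a2 (69.4 and 53.3 FPKM), Lce1b (62.4 and 46.6) and Lce1f (59.3 and 33.4) were lower in replicate 2, with no more than 0.0299 FPKM elsewhere. Lce1e (26.7 and 32.4 FPKM) and Lce1h (17.4 and 23.1) were higher there, and both were listed at 0 in the other 6 libraries. The lowest ratios of replicate 2 to replicate 1 among the Lce1 genes were those of Lce1k (15.8 and 3.95 FPKM, ratio 0.249), Lce1j (14.6 and 4.31, 0.295), Lce1m (17.8 and 5.61, 0.315) and Lce1i (35.9 and 14.3, 0.398). Lce1l (26.9 and 16.8 FPKM) and Lce1g (19.9 and 16.7) were closer to level. Among the Lce3 genes, Lce3f reached 66 and 1245 FPKM, with 0 and 0.0634 in the hindstomach, 0 in the intestine and 0.143 and 0 in the colon, and its log2 difference from the hindstomach was 8.13 (SE 1.22, limma adjusted p = 0.023). Lce3a differed most between the 2 libraries, at 14 and 795 FPKM, and it was not called against the hindstomach (log2 difference 6.76, SE 1.65, limma adjusted p = 0.067, but 3.81e-05 without forestomach replicate 1). Lce3b (24.9 and 550.3 FPKM), Lce3c (39.6 and 438), Lce3e (16.4 and 355) and Lce3d (6.7 and 28.8) followed, and none exceeded 0.154 FPKM elsewhere. Lce6a, the only member of its subfamily, was low at 3.04 and 4.08 FPKM, with no more than 0.0487 elsewhere. Copies within each subfamily share sequence, 9.12% to 27.1% of 50-base words in the 13 Lce1 genes that share any and 12.1% to 49.3% in the Lce3 genes, so the division of fragments within a subfamily is uncertain.

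**Figure D2:**
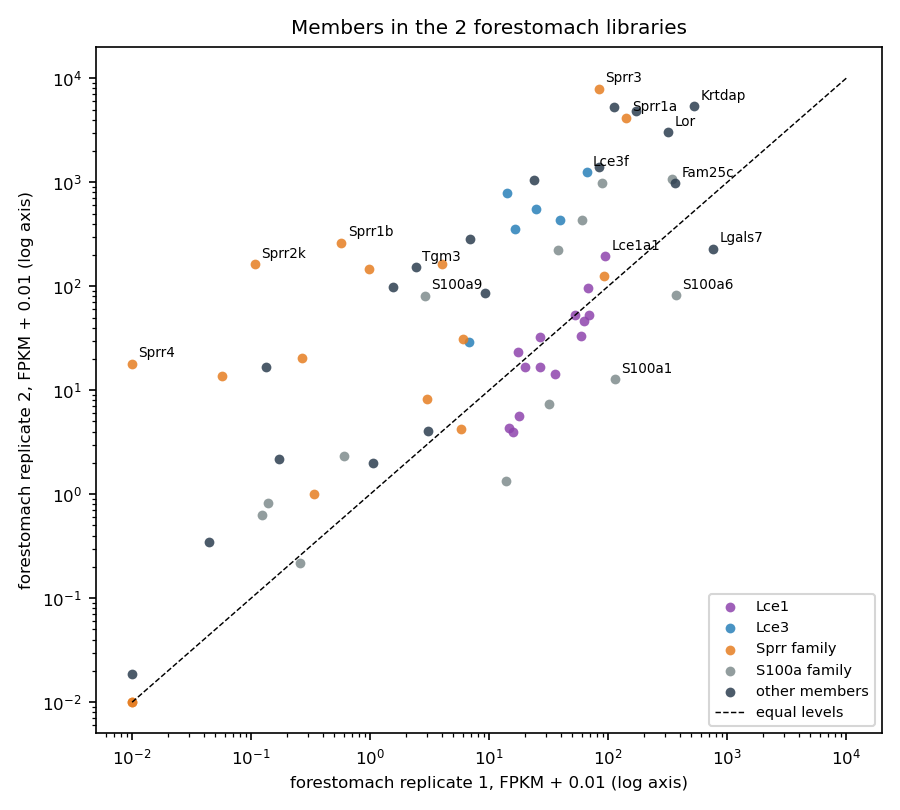
Level of each gene in forestomach replicate 1 (x axis) against replicate 2 (y axis), both as FPKM + 0.01 on log axes, with the dashed line at equal levels. The Lce1 genes lie on both sides of the line, 9 of 14 below it, with Lce1k and Lce1j proportionally as far below as Lgals7. The Lce3 genes and most Sprr genes lie above the line, and Lgals7, S100a1 and S100a6 lie below it.

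RefSeq promoter windows on GRCm38.p6 were matched for 59 of the 67 genes (64 windows, since some genes have several starts). The last 60 bases before the start are printed, 5′ to 3′ on the gene's strand, for the 3 Lce1, 3 Lce3 and 3 Sprr2 genes of highest forestomach mean that have a window, to show how alike the starts of a family are. Capitals mark TATAAA or ATAAAA, or both where they overlap.
Lce1a1, chr3:92648308-92648367, minus strand: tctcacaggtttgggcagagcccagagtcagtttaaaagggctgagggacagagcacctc
Lce1d, chr3:92687211-92687270, minus strand: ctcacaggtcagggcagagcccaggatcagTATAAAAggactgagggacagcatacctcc
Lce1a2, chr3:92670316-92670375, minus strand: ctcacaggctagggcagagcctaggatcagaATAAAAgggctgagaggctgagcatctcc
Lce3f, chr3:92992157-92992216, plus strand: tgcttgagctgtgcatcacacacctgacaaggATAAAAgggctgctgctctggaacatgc
Lce3a, chr3:92926231-92926290, minus strand: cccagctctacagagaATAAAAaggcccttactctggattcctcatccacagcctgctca
Lce3b, chr3:92932919-92932978, plus strand: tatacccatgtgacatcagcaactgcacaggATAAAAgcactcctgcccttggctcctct
Sprr2a3, chr3:92285244-92285303, plus strand: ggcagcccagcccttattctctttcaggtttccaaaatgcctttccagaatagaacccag
Sprr2i, chr3:92407931-92407990, plus strand: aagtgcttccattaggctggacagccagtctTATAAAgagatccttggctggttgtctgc
Sprr2k, chr3:92432522-92432581, plus strand: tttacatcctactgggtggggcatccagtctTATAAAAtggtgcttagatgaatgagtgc
A marked run began between -30 and -28 from the start in 6 of these 9 windows and at -44 in Lce3a, while Lce1a1 and Sprr2a3, the highest genes of their subfamilies, held neither run. The Sprr2a3 window ends at the RefSeq start, upstream of the GENCODE start at chr3:92285417, so the bases just before the latter were not searched. Starts of Sprr2a1 and Sprr2a2 also differ between the 2 annotations, so the Sprr window counts depend on the annotation. In the 40 bases before the start, on the gene's strand, TATAAA or ATAAAA was found in 12 of 13 Lce1 windows, 5 of 6 Lce3 windows and 9 of 14 Sprr windows. It was found in 2 of 14 S100a windows and in 3.48% of all 32851 promoter windows of the same length. This search was added after the sequences had been seen, and a match is a run of letters, not a tested site. TATAAA alone, anywhere on either strand in the 250 bases before the start, was in 39.1% of the members' windows and 12.4% of all.

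The Sprr proteins are crosslinking bridges of the envelope. Of the 16 genes, 12 were higher in both forestomach libraries than in all others (4.72% of all genes in the table were), and 7 passed the filter. Of those 7, 3 were called higher than in the hindstomach (1.33% of all tested genes), 6 than in the intestine (5.78%) and 6 than in the colon (2.41%). The 3 called against the hindstomach (Sprr2b, Sprr2d and Sprr2f) and Sprr2i were under 1 FPKM in all 6 other libraries. They passed the filter through the forestomach alone, so any calls of theirs follow from where they were detected. Sprr3 (chr3:92456502-92458720, minus strand) was the most abundant gene of the whole set, at 84 and 7937 FPKM in the forestomach. It stood at 21.8 and 0.745 FPKM in the hindstomach, 0.027 and 0.123 in the intestine, and 0.628 and 0 in the colon. The forestomach libraries lay above the rest but 94.4-fold apart, and the log2 difference was called against the intestine (9.58, SE 2.17, limma adjusted p = 0.0286) and the colon (9.33, limma adjusted p = 0.0414) and not against the hindstomach (7.03, limma adjusted p = 0.104). Without forestomach replicate 1 the hindstomach difference was 10.30 (limma adjusted p = 0.0059), and without replicate 2 it was 3.75 (limma adjusted p = 0.083). Of the 11 squamous keratins, 9 were also higher in hindstomach replicate 1, with Krt13 at 91.8 and 5.33 FPKM, Krt4 at 67.3 and 2.68, and Krt5 at 19.5 and 0.823 FPKM in the 2 libraries. The 2 others, Krt1 (0.503 and 1.05 FPKM) and Krt16 (0.0056 and 0.272), were higher in replicate 2. All 11 keratins of the list were above 0 in each, and their sums were 252 and 32.3 FPKM. Their part in the Sprr3 level there was not tested.

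Sprr1a and Sprr2a3 were the only genes outside the S100a family that exceeded 21.8 FPKM, the higher hindstomach value of Sprr3, in both hindstomach libraries. Sprr1a stood at 142 and 4187 FPKM in the forestomach, 82.4 and 81.9 in the hindstomach, 0.564 and 0.29 in the intestine, and 1.49 and 2.07 in the colon. Its 2 hindstomach values were nearly equal, and their source was not tested. It was called higher in the forestomach than in the intestine (log2 difference 9.09, SE 1.41, limma adjusted p = 0.00878) and the colon (8.13, limma adjusted p = 0.0181), and not than in the hindstomach (3.22, SE 1.41, limma adjusted p = 0.185; 8.97e-05 without forestomach replicate 1). The hindstomach itself exceeded the intestine by 5.87 (limma adjusted p = 0.0678), a difference that was called in 5 of 16 alternative settings (those that keep the 2-fold minimum, here and below), among them the fits without either forestomach library (limma adjusted p = 0.00145 without replicate 1).

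Sprr2a3 had the widest range of tissues. The forestomach libraries held 91.9 and 125 FPKM, and the hindstomach libraries held 51 and 110.3, so that the ranges overlapped (log2 difference 0.51, SE 0.38, limma adjusted p = 0.396). The colon followed with 22 and 17.5 FPKM and the intestine with 2.75 and 3.17. It was called higher than in the intestine in both the forestomach (log2 difference 4.77, SE 0.38, limma adjusted p = 0.00112) and the hindstomach (4.27, SE 0.38, limma adjusted p = 0.00895), and higher in the forestomach than in the colon (2.39, limma adjusted p = 0.0138). The Sprr2a genes are near-copies: Sprr2a1 and Sprr2a2 share 96.3% and 96.5% of their 50-base words with other genes and are listed at 0 in all 8 libraries, and Sprr2a3 shares 61.1%. The Sprr2a3 value may therefore hold fragments of all 3 copies.

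The other Sprr2 genes, and Sprr1b and Sprr4, were close to absent outside the forestomach, where none exceeded 0.0667 FPKM. Several were nearly restricted to forestomach replicate 2: Sprr1b stood at 0.563 and 262 FPKM, Sprr2k at 0.0969 and 162, Sprr2j-ps at 0.975 and 147, Sprr2g at 0.257 and 20.2, Sprr2h at 0.0469 and 13.7, and Sprr4 at 0 and 18 FPKM. These 6 did not pass the filter, because only 1 library reached 1 FPKM, and with no filter none was called (limma adjusted p against the hindstomach 0.281 to 0.395). Sprr2i stood at 3.99 and 162 FPKM (log2 difference from the hindstomach 4.81, SE 1.45, limma adjusted p = 0.0998). Sprr2d (5.98 and 30.9 FPKM), Sprr2b (2.98 and 8.28) and Sprr2f (5.82 and 4.18) were the 3 called against the hindstomach, with log2 differences of 3.90, 2.58 and 2.54. Sprr2f was the only Sprr gene higher in replicate 1. Sprr2e stood at 0.327 and 0.998 FPKM.

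For the heptamer TGANTCA, the consensus of AP-1 factors, matches lay in 9 of 14 Sprr windows, in 0 of 13 Lce1 and 0 of 6 Lce3 windows, and in 6.75% of all promoter windows (either strand, 250 bases before the start). The windows of Sprr2a1, Sprr2a2 and Sprr2a3, whose starts differ between annotations, held no match. The motif reads the same on both strands. The match nearest the start lay between -198 and -182 in the 7 matched Sprr2 genes, and at -116 and -111 in Sprr1a and Sprr1b. Sprr1a and Sprr2k each held 2 matches, and only the nearer is placed here. Loricrin had its match at -48 and involucrin at -116. The stretch around the match nearest the start is printed for Lor and the 3 Sprr genes with the highest forestomach means among those matched, with the motif in capitals.
Lor, chr3:92083172-92083202, minus strand: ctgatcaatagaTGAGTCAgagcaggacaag
Sprr1a, chr3:92485979-92486009, minus strand: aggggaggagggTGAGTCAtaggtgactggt
Sprr1b, chr3:92438872-92438902, minus strand: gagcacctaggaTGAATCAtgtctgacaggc
Sprr2i, chr3:92407786-92407816, plus strand: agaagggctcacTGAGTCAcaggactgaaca
The most abundant members, Sprr3 and Krtdap, differ in this motif. Their windows of 250 bases before the start are printed with TATAAA and TGANTCA in capitals: Krtdap holds TATAAA at -30 and TGAGTCA at -81, and Sprr3 holds TATAAA at -33 and no TGANTCA.
Sprr3, chr3:92458721-92458970, minus strand: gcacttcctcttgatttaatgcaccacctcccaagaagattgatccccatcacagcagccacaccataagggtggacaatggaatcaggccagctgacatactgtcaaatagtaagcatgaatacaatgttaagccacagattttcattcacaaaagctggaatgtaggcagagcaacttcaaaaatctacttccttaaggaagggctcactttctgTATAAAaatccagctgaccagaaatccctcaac
Krtdap, chr7:30787655-30787904, plus strand: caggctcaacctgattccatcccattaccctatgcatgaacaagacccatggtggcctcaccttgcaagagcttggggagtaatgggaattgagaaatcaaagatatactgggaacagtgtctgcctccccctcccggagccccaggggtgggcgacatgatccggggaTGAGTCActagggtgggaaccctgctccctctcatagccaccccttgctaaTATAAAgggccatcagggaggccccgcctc
Of the other 3 motifs searched, on either strand of the same windows, AACCNGTT was in 4.69% of the members' windows and 1.79% of all, TTGCNNAA was in 9.38% and 9.56%, and GGGTGTG was in 6.25% and 6.93%.

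The fused S100 proteins bind keratin filaments and calcium in the upper cell layers. Repetin led them: Rptn stood at 23.8 and 1042 FPKM in the forestomach, 0.593 and 0.0888 in the hindstomach, 0 and 0.0161 in the intestine, and 0.0926 and 0.00234 in the colon. It was called against the intestine (log2 difference 7.32, SE 1.56, limma adjusted p = 0.0238) and the colon (7.26, limma adjusted p = 0.0339), and not against the hindstomach (6.93, limma adjusted p = 0.0577; 5.71e-05 without forestomach replicate 1). Hornerin (Hrnr) stood at 1.53 and 97.4 FPKM in the forestomach and at no more than 0.0078 elsewhere, and it was not called in any of the 3 comparisons (limma adjusted p = 0.149, 0.125 and 0.135 against hindstomach, intestine and colon). Cornulin (Crnn), a marker of squamous epithelium of the upper gut, was detected above 1 FPKM only in forestomach replicate 2, at 0.123 and 16.8 FPKM. Flg2 (0.0344 and 0.334 FPKM), Tchh (0.16 and 2.16, with 0.184 to 0.815 elsewhere) and Tchhl1 (0 and 0.00868) were low in all libraries. Of the 6 genes only Rptn and Hrnr passed the filter. Both were under 1 FPKM in all 6 other libraries and passed it through the forestomach alone. Any calls of theirs, and their low unadjusted p-values, therefore follow from where they were detected. Against the hindstomach 0 of these 2 were called by limma, and both had an unadjusted p under 0.05.

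The 3 enzymes that crosslink and process the envelope were higher in forestomach replicate 2 by 41.2-fold to 63.4-fold. Transglutaminase 1 (Tgm1), the membrane-bound crosslinker, stood at 6.86 and 283 FPKM in the forestomach, 2.33 and 0.355 in the hindstomach, 1.11 and 0.867 in the intestine, and 0.714 and 0.645 in the colon. Both forestomach libraries lay above the rest, and no comparison was called (limma adjusted p = 0.125, 0.0904 and 0.09). Without forestomach replicate 1, all 3 were (limma adjusted p = 0.000827 against the hindstomach). Transglutaminase 3 (Tgm3) had a second site of expression: it stood at 2.42 and 154 FPKM in the forestomach, 1.05 and 0.0609 in the hindstomach, 0.024 and 0.0162 in the intestine, and 20.3 and 13.9 FPKM in the colon. The colon values lay between the 2 forestomach values, so the sign of the difference turned on the library. The log2 difference of forestomach minus colon was 0.37 (SE 1.61, limma adjusted p = 0.887), 3.12 without forestomach replicate 1 (limma adjusted p = 0.00503) and -2.38 without replicate 2 (limma adjusted p = 0.00996). The colon exceeded the intestine in all libraries by a log2 difference of 4.13, which was not called (limma adjusted p = 0.346; 0.0133 without forestomach replicate 1). The skin protease Asprv1, which processes profilaggrin, stood at 112 and 5290.0 FPKM in the forestomach, 10.2 and 4.77 in the hindstomach, 0.7 and 0.68 in the intestine, and 1.04 and 0.52 in the colon. It was called against the intestine (log2 difference 8.84, SE 1.62, limma adjusted p = 0.0149) and the colon (8.78, limma adjusted p = 0.022), and not against the hindstomach (6.59, limma adjusted p = 0.0681). Against the hindstomach 0 of the 3 enzymes were called by limma, and all 3 had an unadjusted p under 0.05.

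The 6 other suprabasal genes were all called higher in the forestomach than in each other tissue (1.12% of all tested genes were). Crct1, Kprp, Fam25c and Lgals7 were under 1 FPKM in all 6 other libraries. These passed the filter through the forestomach alone, so their calls follow from where they were detected. Krtdap, a secreted protein of differentiating keratinocytes, stood at 528 and 5429 FPKM in the forestomach, 6.99 and 1.57 in the hindstomach, 0.0973 and 0.0492 in the intestine, and 0.539 and 0.157 in the colon (log2 difference from the hindstomach 8.55, SE 1.09, limma adjusted p = 0.0135). Cornifelin (Cnfn), an envelope protein, stood at 171 and 4882 FPKM in the forestomach, 11.5 and 2.69 in the hindstomach, 0.0115 and 0.0697 in the intestine, and 0.412 and 0.0135 in the colon. Its call against the hindstomach was the most fragile of the 6 (log2 difference 7.08, SE 1.49, limma adjusted p = 0.049) and was kept in 4 of 16 alternative settings, with adjusted p between 0.000849 and 0.267. Crct1, a cysteine-rich gene of the complex, stood at 84.4 and 1399 FPKM in the forestomach, 0.572 and 0.318 in the hindstomach, 0 in the intestine and 0.264 and 0.0612 in the colon. Kprp, a keratinocyte proline-rich protein, stood at 9.23 and 86.6 FPKM, with no more than 0.0213 elsewhere.

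Fam25c and Lgals7 were the steadiest. Fam25c stood at 364 and 978 FPKM in the forestomach, 0.727 and 0.427 in the hindstomach, 0 in the intestine, and 0.0855 and 0.0713 in the colon (log2 difference from the hindstomach 8.57, SE 0.45, limma adjusted p = 0.000675). Lgals7, the galectin of stratified epithelia, was the only gene of this class higher in replicate 1, at 762 and 229.7 FPKM, and stood at 0.959 and 0.564 FPKM in the hindstomach, 0.223 and 0.0901 in the intestine, and 0.301 and 0.544 in the colon. Its log2 difference from the hindstomach was 7.90 (SE 0.54, limma adjusted p = 0.0019). It ranked 34th of all transcripts in forestomach replicate 1, above each other envelope gene there, and 208th in replicate 2.

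The S100a genes, small calcium-binding proteins encoded on both flanks of the complex, had no common order of tissues. Of the 13, 3 were higher in both forestomach libraries than elsewhere (S100a14, S100a2 and S100a3), against 46 of the 54 other members and 4.72% of all genes in the table. Of 11 tested, 0 were called higher and 1 lower than in the hindstomach (1.33% and 4.26% of all tested genes), 4 higher and 1 lower than in the intestine (5.78% and 11.3%), and 0 higher and 1 lower than in the colon (2.41% and 9.2%). At an unadjusted limma p under 0.05, 2 were higher and 2 lower than in the hindstomach, and 1 higher and 1 lower than in the colon. The 13 genes summed to 1057 and 2902 FPKM in the forestomach, 1075 and 1179.9 in the hindstomach, 486 and 499 in the intestine, and 786 and 1034 in the colon.

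S100a14 and S100a16, neighbours on the chromosome, had the same order of tissues. S100a14 stood at 88.6 and 979 FPKM in the forestomach, 33.2 and 51.9 in the colon, 19.7 and 20.4 in the hindstomach, and 1.36 and 0.986 in the intestine. S100a16 stood at 59.8 and 437 FPKM in the forestomach, 36.8 and 62.9 in the colon, 30.3 and 33 in the hindstomach, and 6.91 and 4.48 in the intestine. Both were called against the intestine (log2 difference 7.10, SE 1.02, limma adjusted p = 0.00696 for S100a14, and 4.63, SE 0.87, limma adjusted p = 0.016 for S100a16). Neither was called against the colon or the hindstomach, and the S100a16 values of forestomach and colon overlapped. S100a11, whose protein is itself an envelope precursor, was abundant everywhere: 341 and 1076 FPKM in the forestomach, 437 and 436 in the hindstomach, 182 and 311 in the colon, and 97.8 and 66.8 in the intestine. It was called only in the forestomach against the intestine (log2 difference 2.89, SE 0.58, limma adjusted p = 0.0191), and 41.1% of its 50-base words occur in pseudogenes. S100a10, the annexin A2 partner, stood at 37.7 and 221 FPKM in the forestomach, 68 and 49.9 in the hindstomach, 179 and 192 in the intestine, and 185 and 210.4 in the colon. The bowel libraries lay within 179 to 210.4 FPKM, the hindstomach lay below them, and the forestomach pair spanned the whole range, with no call.

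S100a6 was lowest and S100a1 highest in the intestine. S100a6 (calcyclin) stood at 349 and 495 FPKM in the hindstomach, 368 and 82.3 in the forestomach, 181 and 261 in the colon, and 31.3 and 23.2 in the intestine. It was called higher than in the intestine in the hindstomach (log2 difference 3.90, SE 0.68, limma adjusted p = 0.0339) and the forestomach (2.65, SE 0.68, limma adjusted p = 0.0416). S100a1 stood at 146 and 191 FPKM in the intestine, 141 and 92.6 in the colon, 73.7 and 99.8 in the hindstomach, and 113 and 12.7 in the forestomach, where the replicates overlapped those of the hindstomach and colon. Its neighbour S100a13, which starts next to it on the other strand, stood at 31.8 and 7.42 FPKM in the forestomach and between 9.6 and 18.5 FPKM in the other 6 libraries. S100a4, a gene also known from mesenchymal cells, stood at 13.8 and 1.32 FPKM in the forestomach and 0.172 to 3.39 elsewhere. All of S100a1, S100a4, S100a6 and S100a13 were higher in forestomach replicate 1, the library with 4569 FPKM of mesenchyme and muscle markers against 97.5 in replicate 2 (Acta2 1327 and 9.86, Des 353 and 0.511). All 13 genes of that list were above 0 in each library, and their part in these values was not tested. S100a4 also shares 47.4% of its 50-base words with an overlapping gene model.

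S100a5 was the gene that went the other way. It was near absent from the forestomach (0.245 and 0.208 FPKM) and stood at 6.74 and 7.27 in the hindstomach, 10.0 and 8.81 in the intestine, and 5.49 and 1.64 in the colon. The forestomach lay below every other library, and S100a5 was the only envelope-set gene called lower there, with log2 differences of -2.71 from the hindstomach (SE 0.42, limma adjusted p = 0.0239), -3.08 from the intestine (limma adjusted p = 0.00578) and -1.76 from the colon (limma adjusted p = 0.0433). The hindstomach call held in 10 of 16 alternative settings, the intestine call in 14 and the colon call in 6. S100g, the intestinal calcium-binding protein calbindin-D9k and not a member of the family by name, had the same direction at 0.331 and 0.635 FPKM in the forestomach and 83.7 to 131 FPKM elsewhere.

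S100a8 and S100a9 encode the 2 subunits of calprotectin, which neutrophils carry in bulk and squamous epithelia also make. S100a8 stood at 0.114 and 0.62 FPKM in the forestomach, 28.5 and 7.62 in the hindstomach, 1.19 and 0.217 in the intestine, and 1.58 and 7.28 in the colon. S100a9 stood at 2.89 and 81.2 FPKM in the forestomach, 47.6 and 14.3 in the hindstomach, 2.39 and 0.256 in the intestine, and 2.27 and 12.5 in the colon. The pair moved together in the 6 non-forestomach libraries, where the higher library of each tissue was the same for both genes, but in forestomach replicate 2 S100a9 was high with S100a8 below 1 FPKM. Neither was called in the forestomach against the hindstomach (log2 difference -3.57, SE 0.78, limma adjusted p = 0.0538 for S100a8, and -0.61, SE 1.53, limma adjusted p = 0.815 for S100a9). Of 15 neutrophil and monocyte markers, all were above 0 in both hindstomach libraries, where they summed to 47.7 and 25.4 FPKM, and 12 of the 15 were higher in replicate 1, as S100a8 and S100a9 were. The granule genes were among these 12: Ngp at 8.17 and 3.9 FPKM, Mpo at 4.07 and 1.18, Camp at 3.17 and 1.56, and Elane at 2.16 and 0.4. The other 3, Cd68 (2.85 and 5.53 FPKM), Csf1r (2.6 and 2.9) and Adgre1 (0.669 and 0.693), were higher in replicate 2. In the forestomach the list summed to 108 and 139 FPKM, of which Ltf, also made by epithelia, was 24.9 and 122 FPKM and Lyz2 67.3 and 0.184 FPKM. There Mpo stood at 0.0283 and 0.0262 FPKM, Ngp at 0 and 0.161, Elane at 0 and 0.0195, and 3 of the 15 were at 0 in replicate 1. The list summed to 27.1 and 21.8 FPKM in the intestine and 27.9 and 55.2 in the colon, and its part in the calprotectin values was not tested.

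**Figure D3:**
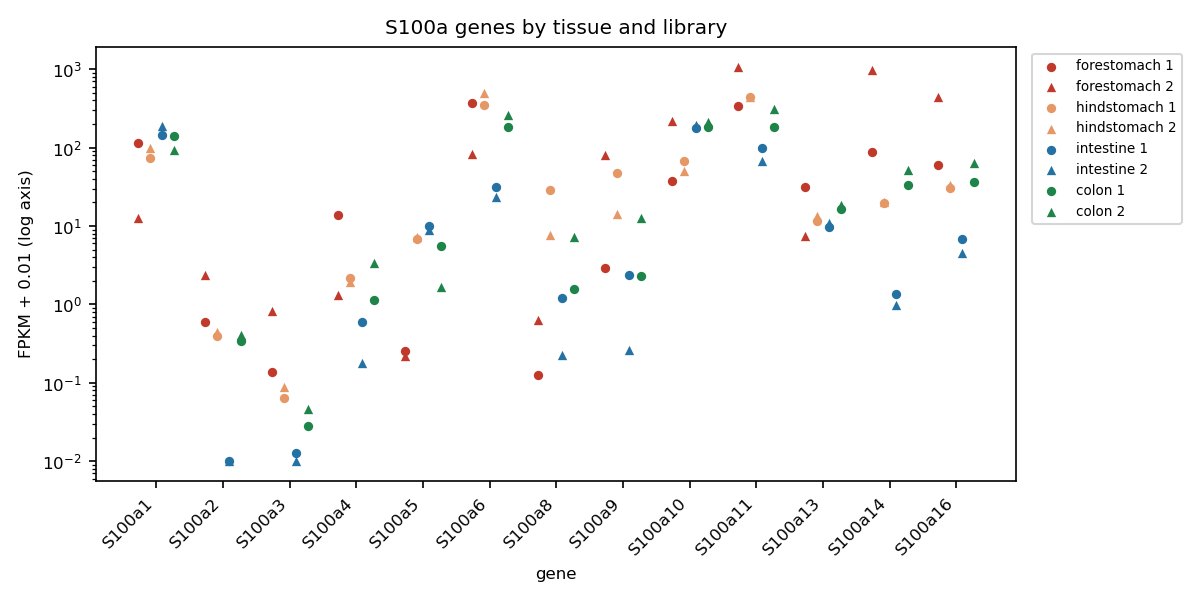
Level of each S100a gene (x axis) in each library, as FPKM + 0.01 on a log axis, coloured by tissue, with circles for replicate 1 and triangles for replicate 2. S100a14 and S100a16 are highest in the forestomach, S100a5 is lowest there, and S100a8 and S100a9 are widest apart in the 2 forestomach libraries.

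In comparisons that leave the forestomach out, 32 of the 52 tested members were under 1 FPKM in all 6 libraries and could hardly be called, and with all 8 libraries the members' counts were near the shares over all genes. Between hindstomach and intestine, 2 of the 52 tested genes were called higher in the hindstomach (Sprr2a3 and S100a6, against 2.47% of all tested genes) and 0 lower (2.55%), with 7 higher and 0 lower at an unadjusted limma p under 0.05. Between hindstomach and colon, limma called 0 higher (0.434% of all tested genes) and 0 lower (1.07%), with 2 higher and 0 lower at an unadjusted p under 0.05. Between colon and intestine, it called 0 higher (0.38%) and 0 lower (0 of all tested genes), with 6 higher and 1 lower at an unadjusted p under 0.05. The fit pools the spread of all tissues, the wide forestomach pair included. Without forestomach replicate 1, 11 were higher and 1 lower in the hindstomach than in the intestine (9.39% and 7.01% of all tested genes). There were 3 higher and 2 lower than in the colon (2.9% and 4.06%), and 5 higher and 0 lower in the colon than in the intestine (2.17% and 0.031%). The totals of 12, 5 and 5 were the same without forestomach replicate 2, whereas without hindstomach replicate 2 or either intestine library there were 0 calls between hindstomach and intestine, among the members and among all 12894 genes.

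The core described here is the span between the outermost chromosome 3 members outside the S100a family. Position and family can therefore not be told apart. The 60 members on chromosome 3 lie between S100a1 and S100a10 in an interval of 3.05 Mb (chr3:90511034-93564643), with 10 other genes of the table. The core from Lor to Tchhl1 spans 1.39 Mb (chr3:92080271-93471980) and holds 47 members, of which 40 were higher in both forestomach libraries than in all others, and 5 other genes, of which 1 was (4.72% of all genes in the table were). Of the other genes in the interval, S100a7a stood at 0.565 and 93.5 FPKM in the forestomach and at no more than 0.28 elsewhere, and Pglyrp3, a peptidoglycan recognition protein, stood at 0.0796 and 27.1 FPKM. Both were high in forestomach replicate 2 only. A pair of unnamed gene models went the opposite way: 9130204L05Rik stood at 19.2 and 0 FPKM and 2310050C09Rik at 23.4 and 0 FPKM. Smcp, a sperm mitochondrial protein gene between Ivl and Lce6a, was listed at 0 in both forestomach libraries and stood at 6.97 and 13.9 FPKM in the hindstomach, 24.8 and 48.4 in the intestine, and 22.4 and 6.58 in the colon.

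**Figure D4:**
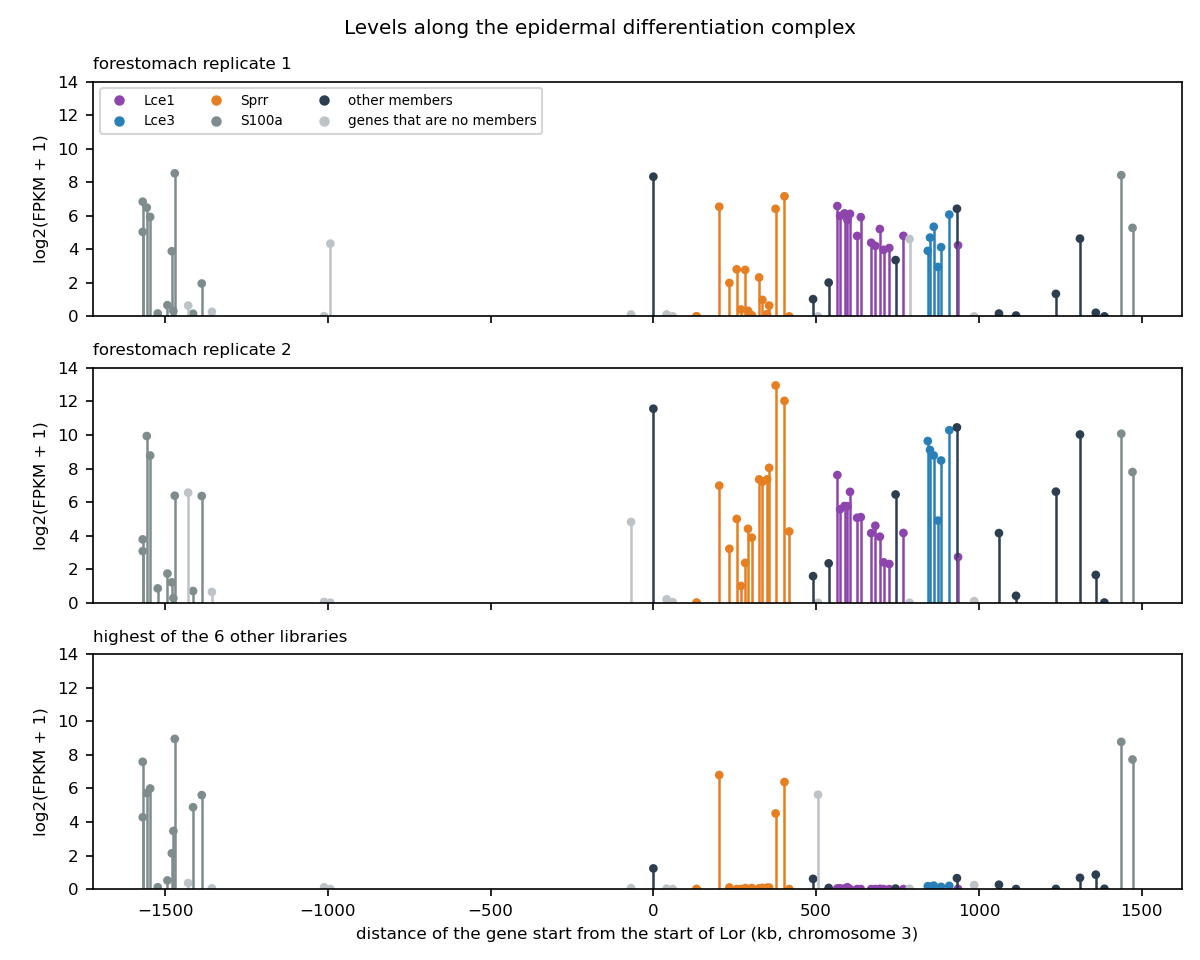
Level (y axis, log2(FPKM + 1)) of each gene of the chromosome 3 interval against the distance of its start from that of Lor in kb (x axis), in forestomach replicate 1, in forestomach replicate 2 and as the highest of the 6 other libraries. Most Lce1 genes have like heights in both forestomach panels, and Lce3 and most Sprr genes are taller in replicate 2. Only the S100a flanks, Sprr2a3, Sprr1a, Sprr3 and the non-member Smcp rise well above the axis in the lowest panel.

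Cornification genes outside the set were compared in the same way. Their list was chosen with earlier results of these data known, so its counts are no independent support. Of 29 further genes of the process, 28 were in the table and 25 were tested, and 12 of those 25 were under 1 FPKM in all 6 other libraries, so they passed the filter through the forestomach alone. Of the 25, 11 were called higher in the forestomach than in the hindstomach (1.33% of all tested genes), 17 than in the intestine (5.78%) and 15 than in the colon (2.41%). Without forestomach replicate 1 the counts were 25, 24 and 25 (7.54%, 12.2% and 7.47%). The desquamation inhibitor Spink5 stood at 198 and 114 FPKM in the forestomach and at no more than 0.802 elsewhere, and its target protease Klk7 stood at 28.9 and 23.3 FPKM and at no more than 0.041 elsewhere. These 2 were near level between the forestomach libraries, as the Lce1 genes were in sum. Sbsn (52.8 and 585 FPKM), Dmkn (124 and 1521) and Serpinb12 (17.7 and 311) were higher in replicate 2, as the Lce3 genes were, and Calm4, an epidermal calmodulin-like protein, stood at 34.5 and 107 FPKM. The 11 squamous keratins were all higher in replicate 2, by amounts that ran from near level to many-fold without a clear split. Krt14 stood at 193 and 212 FPKM in the forestomach, Krt1 at 179 and 299, and Krt16 at 5.68 and 21.6. Krt10 stood at 216 and 1548 FPKM, Krt5 at 167 and 2574, and Krt4 at 126 and 12204. Of the 11, 6 were called higher than in the hindstomach (1.33% of all tested genes) and 9 than in the intestine (5.78%) and the colon (2.41%). Among the 11, 2 were under 1 FPKM in all 6 other libraries and passed the filter through the forestomach alone. Any calls of those 2 follow from where they were detected. Krt13, a keratin of internal squamous epithelia, stood at 233 and 15454 FPKM and was not called against the hindstomach (limma adjusted p = 0.117).

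Of 28 regulators of epidermal differentiation tested, 5 were under 1 FPKM in all 6 other libraries. These passed the filter through the forestomach alone, so any calls of theirs follow from where they were detected. Of the 28, 2 were called higher and 0 lower in the forestomach than in the hindstomach (1.33% and 4.26% of all tested genes), 6 higher and 2 lower than in the intestine (5.78% and 11.3%), and 4 higher and 1 lower than in the colon (2.41% and 9.2%). Without forestomach replicate 1 the counts were 19 and 2 (7.54% and 13.7%), 16 and 2 (12.2% and 16%), and 16 and 1 (7.47% and 18.4%). Klf4, a factor needed for the skin barrier, stood at 212 and 306 FPKM in the forestomach, 41.3 and 61.2 in the hindstomach, 13.7 and 11.9 in the intestine, and 56.6 and 81.1 in the colon (log2 difference from the hindstomach 2.32, SE 0.31, limma adjusted p = 0.0161). Junb, an AP-1 subunit, stood at 48.6 and 82.7 FPKM in the forestomach, 18.7 and 23.7 in the hindstomach, 14.2 and 14.9 in the intestine, and 16 and 21.1 in the colon (1.55, SE 0.30, limma adjusted p = 0.0405). These were the only calls against the hindstomach. Trp63, the basal-layer master regulator, stood at 2.85 and 53 FPKM in the forestomach and no more than 0.717 elsewhere (limma adjusted p = 0.117 against the hindstomach), and Grhl3, a late differentiation factor, stood at 2.18 and 198 FPKM, with 7.48 and 3.95 in the hindstomach (limma adjusted p = 0.481).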

How the data were processed

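The authors deposited 1 table of FPKM values per gene and library. STAR 2.4.2a and the builds GRCm38 and mm10 are named in the submitters' processing notes. For the program and annotation behind the FPKM values, the strand setting and the read depth, nothing is given in the sources used here. Low FPKM values did not resolve into whole reads, so depth is unknown and no counting interval is given. The table has 4 columns that match no sample used here, and they were left out. The 67 members and the comparison lists were chosen with earlier results of these data known. The 12894 genes that reached 1 FPKM in 2 or more of the 8 libraries were fitted with limma 3.58.1 in R 4.3.3 on log2(FPKM + 1), with 4 tissue means, all 8 libraries and a mean-variance trend. Calls need a Benjamini-Hochberg adjusted p under 0.05 and a difference of at least 2-fold. The fit was tested on simulated data. Members averaging at least 10 FPKM in their highest tissue, the leading member of a class with none, and members called without the forestomach are given in every library; genes outside the set come from the comparison lists, as the largest differences against the hindstomach and stated misses, or from the chromosome 3 interval. The other cell-type markers named (Krt1, Krt4, Krt5, Krt16, Pgc, Gkn1, Gkn2, Cym, Acta2, Des, Lyz2, Mpo, Elane, Cd68, Csf1r and Adgre1) were chosen after their values were seen. Gene positions are from GENCODE on GRCm38, and shared 50-base words were counted over its transcripts. Promoters are RefSeq windows on GRCm38.p6, and ATAAAA and the printed stretches of 60 and 31 bases were added after the sequences were seen. Alternatives were another pseudocount, 2 other filters, 2 scalings, a fit without the other 2 tissues, a replicate block, no trend, no minimum fold, and each library left out.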

Additional observations from a re-analysis of the deposited data

How the results depend on the processing

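Each member difference called with all 8 libraries kept its sign under every setting tried, and the number of calls changed. Fitted on only the 2 tissues compared, the calls fell from 31 to 11 (forestomach minus hindstomach), from 42 to 19 (minus intestine) and from 38 to 12 (minus colon), and rose from 2 to 13 (hindstomach minus intestine), from 0 to 4 (hindstomach minus colon) and from 0 to 2 (colon minus intestine). With 1 library left out, the ranges in that order were 12 to 46, 18 to 48, 17 to 48, 0 to 12, 0 to 5 and 0 to 5, and the number higher than in each other tissue (30) ranged from 12 to 42. Between hindstomach and intestine there was 1 call with no filter and 4 with quantile normalization.

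Replicate numbers did not pair the libraries: correlations of the deviations of the first replicates ran from -0.578 to 0.270 over the 6 tissue pairs. With the number as a replicate block the calls were 25, 39, 33, 1, 0 and 0, and 24 genes were higher than in each other tissue. Over 151 pairs of a named gene and a comparison (60 genes), 5 values changed sign when 1 library was left out: Tgm3 against the colon, not called with all libraries, ranged from -2.38 (without forestomach replicate 2) to 3.12 and was called at both ends, Sprr2a3 against the hindstomach from -0.040 (without hindstomach replicate 1) to 1.06, S100a9 against the hindstomach from -2.81 to 1.59 (without forestomach replicate 1; 0.22 without hindstomach replicate 1), and Grhl3 against the hindstomach from -1.02 (without forestomach replicate 2) to 4.94. The causes were not tested. With 2 libraries a tissue and depth unknown, values near 0 FPKM cannot be told from absence.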
